A study of Mus musculus with 4 samples.

Results

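Opposite-strand transcripts are genes whose official mouse symbol is the symbol of a neighbouring gene followed by "os" and, where a locus has several, a number. Symbols of this form, without the 3 Nanos genes, numbered 244 of the 29652 genes in the complete gene lists of sorted fetal mouse pancreas cells. Of these, 19 were protein-coding genes, and 9 of the 19, such as Icos, Mios, Uros and Pros1, are ordinary coding genes whose names only end in these letters. The 225 non-coding transcripts, named after 204 partners, are described here. Of these, 223 had an annotated partner gene, and all 223 lay on the strand opposite to it. For the other 2, Etos1 and Snhg7os, the stem matched no annotated gene, so that the label could not be checked; they are counted by the rule.

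The study made 1 single-cell RNA-seq library for each of 4 groups of C57BL/6 embryos, WT and KO at the ages E13.5 and E15.5. WT embryos carried Setd2 f/f, and KO embryos carried Setd2 f/f with Pdxcre, so that both genotypes hold the floxed allele and the KO depends on a recombinase driven from the pancreas gene Pdx. Cells were labelled with EpCAM, an epithelial surface protein, and sorted. Setd2 encodes a histone methyltransferase that marks the bodies of transcribed genes. The number of embryos behind a library is not stated in those sources. The deposited lists say only whether a gene was listed in a library, with no count or level, so the depth is unknown and a gene that is not listed may have been missed rather than absent. Each group is a single library, so that no difference below could be checked in replicates or given a p-value, and a genotype or age cannot be told apart from its library. Comparisons used 3 complete lists, of E13.5 KO with 26341 genes, E15.5 KO with 25474 and E13.5 WT with 25463. All 3 held Setd2, which says nothing of the genotype in lists without levels, and 11 of 11 pancreatic epithelial markers. They also held 4 of 4 markers each of mesenchyme and of immune cells, despite the epithelial sort. The E15.5 WT list broke off after 167 entries, and 0 opposite-strand transcripts fell in that stretch.

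Transcription from the strand opposite to a gene often begins near that gene's own start, where one open promoter can fire in both directions, or inside the gene body. Some such transcripts act on their neighbour, for example by carrying chromatin regulators or by transcription through its promoter, and for most no role is known. Loci of developmental transcription factors, among them the Hox clusters and the genes Six3, Dlx6, Pax6 and Emx2, are known for long non-coding RNAs of this kind.

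The starts of 6 transcripts on which the results turn are shown first, as RefSeq gives them on GRCm38.p6, the patched form of the assembly that mm10 names. Each window runs from 250 bases before to 50 bases after the start, on the transcript's own strand, and capitals mark CG dinucleotides. Ptf1aos and Pax6os1 belong to pancreatic transcription factors and were in all 3 lists. Six3os1 was listed where Six3 was not, Dlx4os and Evx1os were listed only where their partners were not, and Ctrcos, at an acinar enzyme gene, was in both KO lists and not in the E13.5 WT list. The windows are chr2:19446625-19446924 on the minus strand for Ptf1aos, chr2:105670281-105670580 (minus) for Pax6os1, chr17:85618347-85618646 (minus) for Six3os1, chr11:95144803-95145102 (plus) for Dlx4os, chr6:52314783-52315082 (minus) for Evx1os and chr4:141844071-141844370 (plus) for Ctrcos.
Ptf1aos: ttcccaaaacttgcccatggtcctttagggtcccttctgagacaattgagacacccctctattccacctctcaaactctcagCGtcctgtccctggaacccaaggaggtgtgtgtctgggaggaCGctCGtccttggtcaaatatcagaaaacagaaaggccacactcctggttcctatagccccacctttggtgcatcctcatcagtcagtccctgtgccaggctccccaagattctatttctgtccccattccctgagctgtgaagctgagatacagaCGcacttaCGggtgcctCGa
Pax6os1: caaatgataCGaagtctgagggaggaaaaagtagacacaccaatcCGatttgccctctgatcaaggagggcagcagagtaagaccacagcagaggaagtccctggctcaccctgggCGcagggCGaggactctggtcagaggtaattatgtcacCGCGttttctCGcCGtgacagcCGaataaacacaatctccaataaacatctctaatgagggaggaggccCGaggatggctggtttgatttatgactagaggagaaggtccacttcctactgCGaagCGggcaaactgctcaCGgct
Six3os1: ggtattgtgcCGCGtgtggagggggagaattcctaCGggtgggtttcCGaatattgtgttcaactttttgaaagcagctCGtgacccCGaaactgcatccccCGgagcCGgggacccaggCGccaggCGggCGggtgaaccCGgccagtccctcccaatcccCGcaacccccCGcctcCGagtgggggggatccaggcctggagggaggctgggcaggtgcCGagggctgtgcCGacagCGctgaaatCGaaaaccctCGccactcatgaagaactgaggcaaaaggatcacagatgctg
Dlx4os: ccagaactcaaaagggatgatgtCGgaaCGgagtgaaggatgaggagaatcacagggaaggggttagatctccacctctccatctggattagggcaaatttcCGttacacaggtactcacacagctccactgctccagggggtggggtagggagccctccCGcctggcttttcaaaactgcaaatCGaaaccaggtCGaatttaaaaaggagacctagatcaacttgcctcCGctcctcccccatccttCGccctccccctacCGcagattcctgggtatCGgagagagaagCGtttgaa
Evx1os: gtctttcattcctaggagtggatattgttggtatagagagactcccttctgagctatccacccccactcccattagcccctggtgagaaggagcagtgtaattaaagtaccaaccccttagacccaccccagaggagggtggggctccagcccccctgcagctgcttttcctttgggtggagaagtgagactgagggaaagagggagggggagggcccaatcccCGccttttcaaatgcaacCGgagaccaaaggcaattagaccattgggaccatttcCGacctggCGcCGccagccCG
Ctrcos: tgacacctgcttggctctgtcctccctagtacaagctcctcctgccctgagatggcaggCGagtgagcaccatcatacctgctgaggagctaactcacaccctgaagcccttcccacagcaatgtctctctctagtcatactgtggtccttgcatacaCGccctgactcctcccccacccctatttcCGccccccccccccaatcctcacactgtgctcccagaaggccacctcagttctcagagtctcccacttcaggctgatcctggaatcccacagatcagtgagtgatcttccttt
The Six3os1 window held 20 CG dinucleotides, Pax6os1 13, Dlx4os 11, Ptf1aos 6, Evx1os 6 and Ctrcos 3, against a median of 7 over the 32851 windows of all genes in the RefSeq table.

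Opposite-strand transcripts were listed widely. E13.5 WT held 188 of the 225, E13.5 KO 193 and E15.5 KO 182, which is 64.8%, 66.6% and 62.8% of the 290 non-coding genes with such symbols in the annotation. Of the 2701 other genes that the annotation types as antisense, the same lists held 50.1%, 52.7% and 49.7%. In all 3 lists there were 151 (67.1%), 36 were in 2 lists and 38 (16.9%) in 1. At least 1 list held 77.6% of the annotated ones. Of the other antisense genes 64.1% were in at least 1 list, and 59.5% of those listed were in all 3. Of the 33218 other non-coding genes, antisense ones included, 34.4% were listed at all, and of the 22028 protein-coding genes 81.5%. Named opposite-strand transcripts therefore lay between antisense genes in general and protein-coding genes, of whose listed members 89.4% were in all 3 lists. The difference was not tested, since genes are not replicates.

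**Figure D1:**
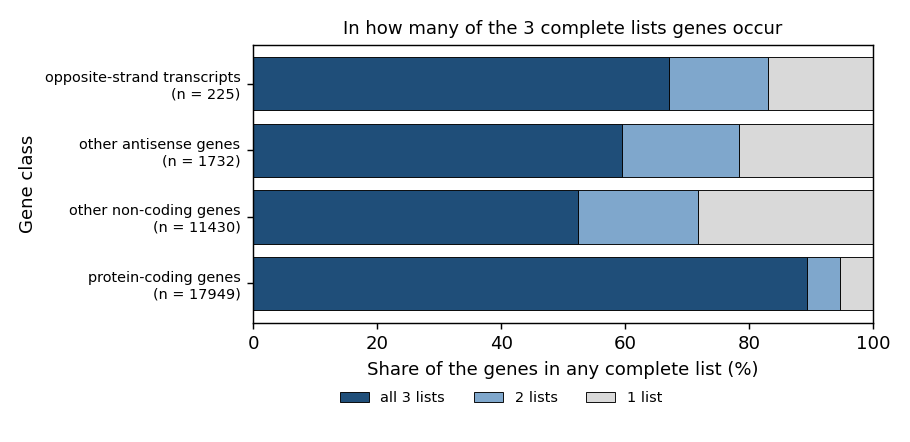
Horizontal bars give the share (%) of the genes in any complete list that occur in all 3 lists, in 2 or in 1, for opposite-strand transcripts, other antisense genes, other non-coding genes (which include the other antisense genes) and protein-coding genes. The part in all 3 lists is 67.1%, 59.5%, 52.4% and 89.4% from top to bottom.

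Developmental transcription factors, taken by a list of symbol stems, were the partners of 33 transcripts, 31 factors in all. That list is not complete, since it leaves out genes such as Bach2, Hopx and Jun. Counts at transcription factors here and below are of the matched stems only. E13.5 WT held 30 of the 33 transcripts, E13.5 KO 29 and E15.5 KO 25. In all 3 lists were 23 (69.7%), against 66.7% of the 189 transcripts at genes matched by neither the transcription factor nor the signal stems. Several of the 23 lie at factors that build the pancreas. Ptf1aos (ENSMUSG00000085388, chromosome 2, 19441508 to 19446674, mm10) starts 1011 bases from the start of Ptf1a, the factor of multipotent and acinar progenitors, and its exons share 609 bases with those of Ptf1a. Pax6os1 (chromosome 2, 105536080 to 105670330) starts 1430 bases inside Pax6, a factor of endocrine cells, and shares 0 exon bases with it. Nkx2-2os (chromosome 2, 147184083 to 147331681) starts 10160 bases from the start of Nkx2-2, another endocrine factor. Hnf4aos (chromosome 2, 163493807 to 163541720) starts 34912 bases inside Hnf4a, which encodes a factor of liver, gut and islet cells. These 4 transcripts and their partners were in all 3 lists.

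Also at transcription factors and in all 3 lists were Foxd2os, Foxo6os, Gata5os, Hoxb3os, Hoxb5os, Irx3os, Lhx1os, Mecomos, Prox1os, Prox2os, Runx2os1, Sox5os2, Sox6os, Tbx3os1, Tlx1os, Wt1os and Zeb2os. Prox1os starts 418 bases from the start of Prox1, a factor of pancreatic progenitors. Wt1os starts 19 bases from Wt1, the factor of mesothelium and kidney, and runs away from it. Some partners in this group are factors of mesenchyme or mesothelium rather than of epithelium, such as Wt1, Tlx1 and Zeb2, beside the mesenchymal markers in each complete list; their part in the listing was not tested. The list of signal stems used here matched 3 transcripts and is not complete, since it leaves out cytokine genes such as Il1b and Tnfsf13 and the Wnt agonist gene Rspo4. The 3 were Igf1os and Igf2os, at the insulin-like growth factors, in all 3 lists, and Fgf2os, at a fibroblast growth factor gene, in E13.5 KO alone.

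Of the 33, 10 were in some lists only. Dlx6os1, Hoxd3os1, Six3os1, Tbx3os2 and Zfhx2os were in both E13.5 lists and not in E15.5 KO. Emx2os was in E13.5 KO alone, Dlx4os and Otx2os1 in E13.5 WT alone, and Evx1os and Nr5a1os in E15.5 KO alone. All of these partners except Tbx3 (T-box) and Nr5a1 (nuclear receptor) are homeobox genes. Dlx6 and Otx2 are best known from the forebrain, Six3 from eye and forebrain, Evx1 from the tail end of the embryo, and Nr5a1 from adrenal and gonad.

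**Figure D2:**
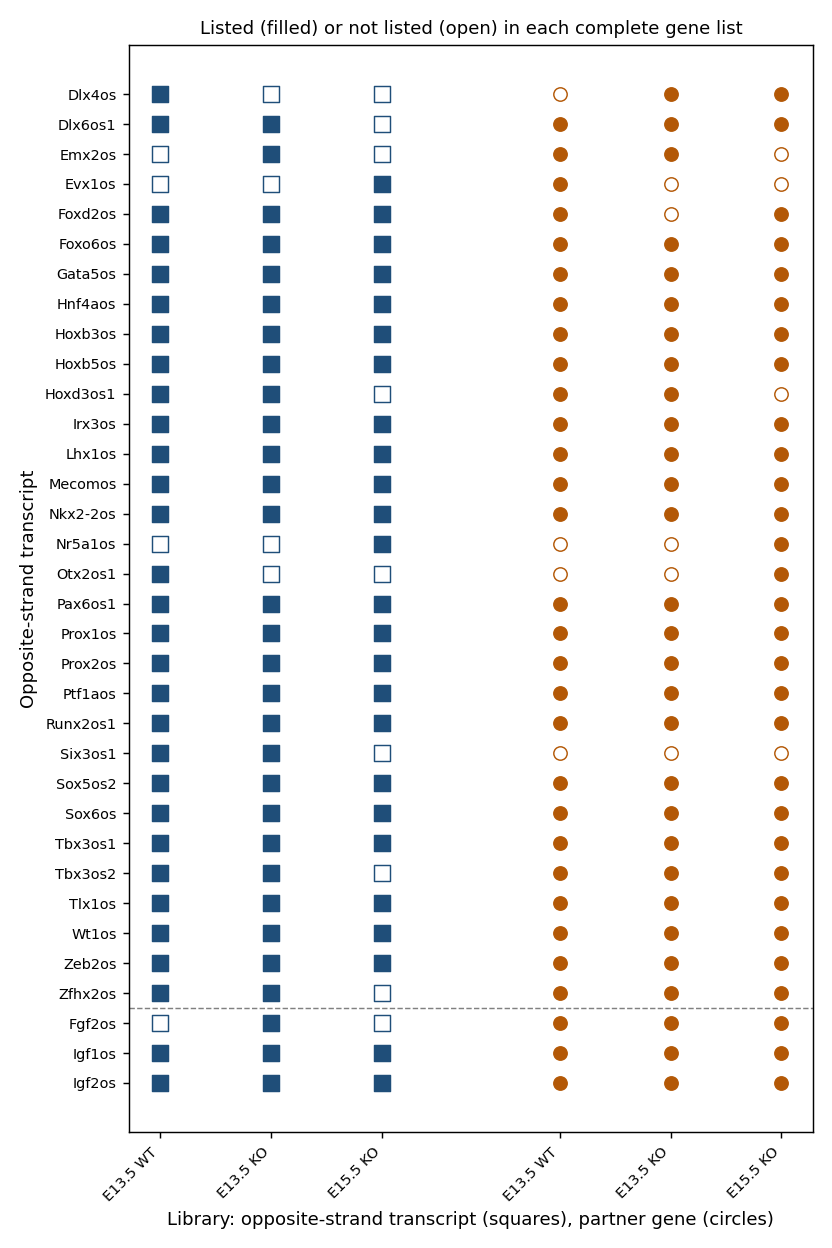
Rows are 31 of the 33 opposite-strand transcripts at transcription factor genes and, under the dashed line, the 3 at signal genes. Filled symbols mean listed and open symbols not listed, in the E13.5 libraries (WT, then KO) and E15.5 KO, with squares for the transcript and circles for its partner. In the rows of Dlx4os, Evx1os and Otx2os1 no library has both symbols filled, and the circles of Six3os1 are all open.

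A transcript and its partner could be listed apart. In E13.5 WT the partner of 179 of the 188 listed transcripts was listed too when looked up by its symbol (95.2%), in E13.5 KO 187 of 193 (96.9%) and in E15.5 KO 171 of 182 (94%). Of the transcripts of the 225 that a library did not list, the partner was listed for 34 of 37 in E13.5 WT (91.9%), 26 of 32 in E13.5 KO (81.2%) and 38 of 43 in E15.5 KO (88.4%). Partners were thus widely listed with or without their transcript, and the difference between those shares was not tested. The share of all annotated protein-coding genes listed was 77.7%, 77.9% and 75.9% in the same libraries. Of the 73 transcripts with an annotated partner that were in some lists only, 62 had a partner in all 3 lists. A transcript and its partner could also be missing from the same library, as Emx2os and Emx2 were from E15.5 KO. Exactly the same lists, fewer than 3, held transcript and partner in 2 cases. Hoxd3os1 and Hoxd3 were both in the E13.5 lists and not in E15.5 KO, and Nr5a1os and Nr5a1 were both in E15.5 KO alone.

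Dlx4os, Evx1os and Otx2os1 were the 3 transcripts with a listed partner that were never in the same list as it. Dlx4os (chromosome 11, 95145052 to 95159047) was in E13.5 WT, while Dlx4 was in both KO lists. Evx1os (chromosome 6, 52308389 to 52314832) was in E15.5 KO, while Evx1 was in E13.5 WT. Otx2os1 (chromosome 14, 48668708 to 48870683) was in E13.5 WT, while Otx2 was in E15.5 KO. Each of the 3 overlaps the start of its partner, with starts 1211, 1334 and 5111 bases apart and 79, 73 and 154 shared exon bases.

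For 4 transcripts the partner was in no complete list. Six3os1 (chromosome 17, 85600651 to 85618398) was in both E13.5 lists without Six3, a homeobox gene of the anterior neural plate; it has 11884 exon bases in the annotation, the most of the 225. Tnfsf13os was in all 3 lists without Tnfsf13, a cytokine gene. Slc36a3os was in E13.5 WT and E15.5 KO without Slc36a3, an amino acid transporter gene, and Gldnos in E15.5 KO without Gldn, which encodes gliomedin of peripheral nerve. With Tnfsf13os, 5 transcripts were in all 3 lists while their partner was not. Atcayos and Plxna4os1 were in E15.5 KO without Atcay and Plxna4, genes of neurons. Ccdc142 was in E13.5 KO alone, and E13.5 KO held Foxd2os without Foxd2. Whether reads were counted by strand is not given in the sources used here, so reads from a gene and from its opposite-strand transcript cannot be told apart where their exons overlap. Exon bases of a protein-coding gene were shared by 66.2% of the transcripts in all 3 lists, 55.6% of those in 2 and 44.7% of those in 1.

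The comparison of genotypes at E13.5 covered 209 transcripts listed in either library. Both held 172 of them (82.3%), 21 (10%) were in KO only and 16 (7.66%) in WT only. Over all genes 9.72% were in KO only and 6.61% in WT only, and over other antisense genes 15.3% and 11%. Over other non-coding genes the shares were 20.9% and 12.9%, and over protein-coding genes 3.17% and 2.91%. The transcripts thus stood close to all genes and below the antisense class. Of the transcripts matched by the transcription factor stems 1 was in KO only (Emx2os) and 2 in WT only (Dlx4os, Otx2os1).

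Of the 21 in E13.5 KO and not in E13.5 WT, 7 were also in E15.5 KO, namely Arl4aos, Bcas1os2, Cpeb1os1, Ctrcos, Hopxos, Pard3bos2 and Slain1os. Over all genes the same held for 1167 of 2741, a larger share. Ctrcos (chromosome 4, 141844321 to 141846990) overlaps the start of Ctrc, the gene of chymotrypsin C that acinar cells secrete. It shares 0 exon bases with Ctrc, and Ctrc itself was in all 3 lists. Hopxos lies inside Hopx, the gene of a small homeodomain protein. All 7 partners were in all 3 lists. The other 14, in E13.5 KO alone, were Atxn7l1os1, Bcas3os1, Ccdc42os, Csmd2os, Dbhos, Emx2os, Fgf2os, Grip1os1, Kank4os, Lyrm7os, Mxra8os, Prkag2os1, Sardhos and Tmcc3os. Dbhos runs head to head with Dbh, the dopamine beta-hydroxylase gene of sympathetic neurons, which was in both E13.5 lists and not in E15.5 KO.

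The 16 in E13.5 WT and not in E13.5 KO were in WT alone (8) or also in E15.5 KO (8). Over all genes these numbers were 1214 and 649. In WT alone were Alkbh3os1, Chn1os1, Cyp4x1os, Dlx4os, Grin1os, Otx2os1, Rbm46os and Unc45bos. Grin1os lies inside Grin1, the gene of a glutamate receptor subunit, and shares 1307 exon bases with it. Also in E15.5 KO were Far2os2, Galnt6os, Ift88os, Lrrc75aos1, Pla2g10os, Slc36a3os, Ube2uos and Usp46os1. Restricting the comparison to transcripts that share no base with a coding exon left 14 in KO only and 5 in WT only, beside 59 in both. No other gene class was counted under this restriction, so these counts have no matching background. Without it, 2741 of all genes were in KO only and 1863 in WT only.

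The comparison of ages within the KO covered 217 transcripts. Both lists held 158 (72.8%), 35 (16.1%) were in E13.5 KO only and 24 (11.1%) in E15.5 KO only. Over all genes these shares were 10.4% and 7.37%, and over other antisense genes 17.5% and 12.6%. Over other non-coding genes they were 19.3% and 15.3%, and over protein-coding genes 5.03% and 2.55%. Here the transcripts stood close to the antisense class. Transcripts matched by the transcription factor stems numbered 6 in E13.5 KO only and 2 in E15.5 KO only, out of 31. Over all genes, 1390 of the 2964 in E13.5 KO only were in E13.5 WT as well. Of the 35 transcripts, 21 were. Beside the 5 at homeobox and T-box genes named above, these were Arhgap27os3, Bach2os, Dnah2os, Dnm3os, Fam219aos, Far1os, Frmpd1os, Kcnmb4os1, Pip5k1bos, Prkag2os2, Ptgs2os, Ptgs2os2, Rapgef4os2, Tnk2os, Ube4bos1 and Usp46os2. Dnm3os (7928 exon bases in 1 exon) is known as the precursor of microRNAs of mesenchyme, and Ptgs2os and Ptgs2os2 flank Ptgs2, the inducible cyclooxygenase gene. Except for Hoxd3, listed like Hoxd3os1, and Six3, listed nowhere, the partners of these 21 were in all 3 lists.

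Of all genes in E15.5 KO and not in E13.5 KO, 649 were shared with E13.5 WT and 1448 were in E15.5 KO alone. The 24 transcripts in E15.5 KO and not in E13.5 KO were the 8 shared with E13.5 WT given above and 16 in E15.5 KO alone. Those were Aknaos, Etos1, Evx1os, Fhad1os1, Gldnos, Kbtbd8os, Macrod2os1, Mipepos, Nr5a1os, Pard3bos1, Pitpnm2os2, Rab11fip4os2, Slc36a1os, Slmapos2, Tbc1d22bos and Ube4bos3. The E15.5 KO list also lacked markers of other cell types that both E13.5 lists held, namely Cdh5 and Tie1 of endothelium (2 of 4 listed), Gata1 of erythroid cells (3 of 4 listed) and markers of neural crest and neurons, Foxd3 among them (3 of 5 listed). Their part in the difference between the ages was not tested.

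Transcripts inside their partner were listed less steadily than those on its start side. On the start side of the partner, head to head with it or overlapping its start, lay 104 transcripts, with a median of 612.5 bases between the starts, and 81 of them (77.9%) were in all 3 lists. Inside the partner lay 83, with a median start distance of 49214 bases, and 42 of them (50.6%) were in all 3 lists. Of the 21 transcripts in both E13.5 lists and not in E15.5 KO, 13 lay inside the partner and 3 on its start side. Other antisense genes listed in this way were not split by position, so these counts have no matching background. On the end side lay 28 transcripts, 71.4% of them in all 3 lists. The share was 80% of the 20 that overlap the partner's end and 50% of the 8 tail to tail with it. Another 8 contained the partner, and 7 of these (87.5%) were in all 3 lists. Median start distances were 33794.5 bases for those that overlap the end and 15209.5 for those that contain the partner. Steady listing was thus not limited to starts close to that of the partner. For 2, Etos1 and Snhg7os, no annotated partner was found. The starts of Phf2os1 and Phf2 were 7 bases apart and those of Mipepos and Mipep 8, the closest of all. The 1732 other antisense genes that were listed were placed against the nearest protein-coding gene of the other strand. Of the 615 on the start side 70.6% were in all 3 lists, and of the 809 inside a gene 50.1%. On the end side the share was 62.1%, and among those that contain the gene 61.8%. The lower share inside than on the start side is thus not particular to the named transcripts. Of the 33 transcripts at transcription factors 63.6% lay on the start side, against 42.3% of those at genes matched by neither the transcription factor nor the signal stems.

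**Figure D3:**
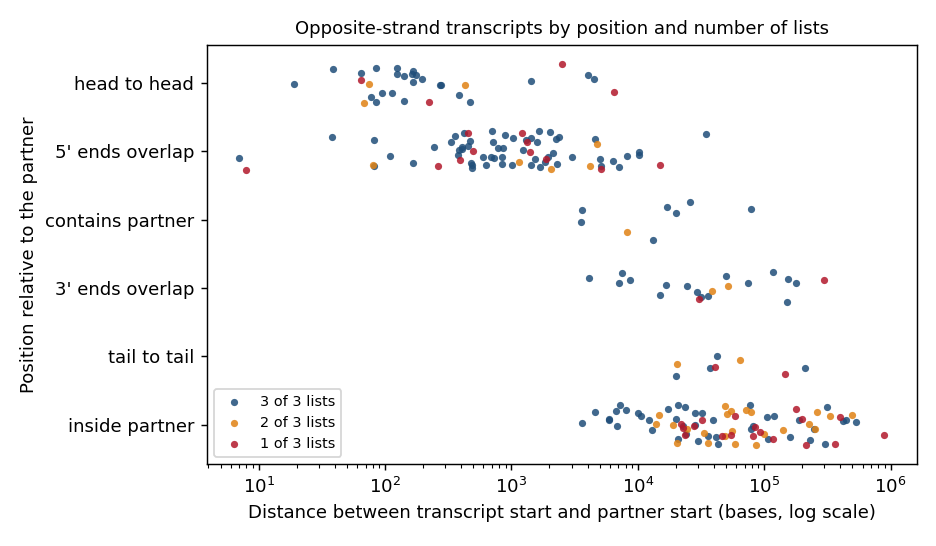
Each point is 1 of the 223 opposite-strand transcripts with an annotated partner, placed by the distance in bases between its start and the start of the partner (log scale) and by its position class, and coloured by how many of the 3 complete lists held it. Points listed in 1 or 2 lists are most frequent in the row of transcripts inside the partner, where 50.6% were in all 3 lists; points within each row are spread vertically for legibility.

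The promoter windows differed along the same line. RefSeq gave a window for 137 of the 225 transcripts. The 70 on the start side of the partner had a median of 16.5 CG dinucleotides per 300 bases, and the 45 inside the partner a median of 5. Some windows overlap exons of protein-coding genes, on the start side (all 300 bases for Dgkeos) and inside (all 300 for Grin1os). Others share 0 bases with them (Pax6os1, Bach2os). Such overlap was more frequent on the start side than inside the partner. A CG count can therefore include bases of a coding gene as well as of the transcript's promoter. Start-side windows that share 0 bases with coding exons held from 0 CG dinucleotides (Gata5os) to 30 (Zfp335os). The medians were not taken apart by overlap, so the part of coding exons in their difference was not tested. The position classes rest on GENCODE starts and the windows on RefSeq starts, and for 23 of the 137 these lay more than 1000 bases apart, at most 70701. Without those windows, a restriction chosen after seeing the data, the medians were 17 over 63 and 5 over 36. Windows with 10 or more CG dinucleotides, a limit chosen after the values were seen, made up 67.1% on the start side, 11.1% inside the partner and 43.5% of all 32851 windows. The letters GGGCGG, searched on both strands, were in 50% of the windows on the start side, 15.6% inside and 35.7% of all windows. CCAAT was in 34.3%, 37.8% and 37.4%, and TATAAA in 4.29%, 13.3% and 13.6%, both also searched on both strands. The 87 transcripts in all 3 lists had a median of 12 CG dinucleotides and the 50 in 1 or 2 lists a median of 5. A match of letters is a description and shows no binding. The 6 windows printed above, with 3 to 20 CG dinucleotides, all belong to transcripts on the start side.

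**Figure D4:**
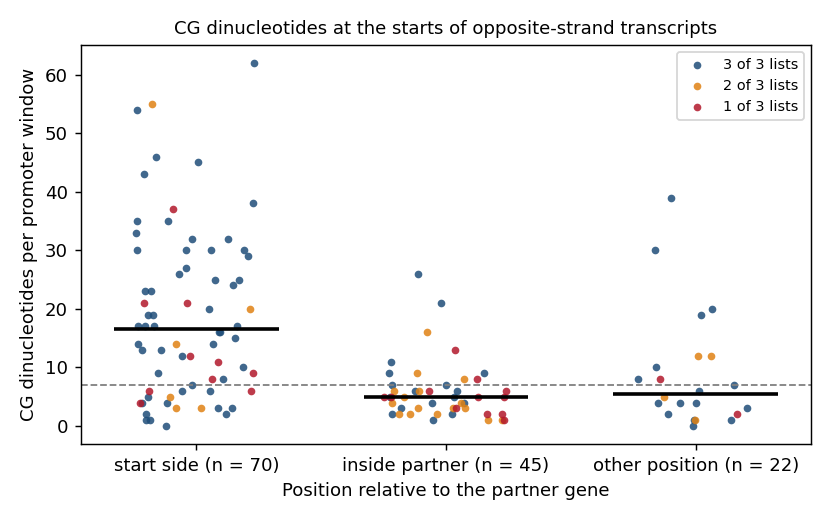
Points are the CG dinucleotides in the 300-base promoter window of each of 137 opposite-strand transcripts, grouped by position relative to the partner and coloured by the number of complete lists that held the transcript. Black bars are group medians (16.5 on the start side, 5 inside the partner) and the dashed line is the median of 7 over all promoter windows; points are spread sideways for legibility.

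Neighbouring transcripts of 1 partner were often listed differently. At 19 partners 2 or more such transcripts were listed, 40 in all. At 15 of the 19 they were not in the same libraries, and at 3, Lrp8 and Pcsk2 among them, all of them were in all 3 lists. The pair Pcsk2os1 and Pcsk2os2 lies at Pcsk2, the prohormone convertase gene of alpha and beta cells, and the 3 at Lrp8 at a reelin receptor gene. Both transcripts at Ptgs2 were in the E13.5 lists and not in E15.5 KO. At Tbx3, Tbx3os1 overlaps the start of the gene and was in all 3 lists, while Tbx3os2, 20549 bases away in start, was not in E15.5 KO. At Usp46 the transcripts were Usp46os1, in E13.5 WT and E15.5 KO, and Usp46os2, in both E13.5 lists. At Ube4b they were Ube4bos1, in both E13.5 lists, and Ube4bos3, in E15.5 KO alone.

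Annotated transcripts of this kind in no complete list numbered 65, and the symbols of 3 of these were listed under another identifier. Of the symbols matched by the transcription factor stems 11 of 44 were in no list. For Foxl2os, Hoxa11os and Vax2os the partner was in no complete list either. For Dlx6os2, Runx2os2, Runx2os3 and 4 of the 5 transcripts at Sox5 (Sox5os1, Sox5os3, Sox5os4 and Sox5os5) the partner was in all 3 lists, and for Raxos1 the partner Rax was in both KO lists. The 65 had a median of 927 exon bases, against 1350 for the 151 in all 3 lists, 1368.5 for the 36 in 2 and 1750 for the 38 in 1. Among listed transcripts the median thus did not rise with the number of lists.

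The transcripts were not spread over the genome like other antisense genes. Chromosomes 2, 4 and 11, picked as those with the most, held 104 of the 225 (46.2%) and 18.1% of the other 2701 antisense genes of the annotation. In that order they held 17.3%, 11.1% and 17.8% of the 225. Of all annotated non-coding genes with such symbols, listed or not, they held 17.6%, 10.7% and 17.2%. The uneven spread is thus one of the annotated symbols and not a trait of these lists. Chromosome 2 also carried 9 of the 33 at transcription factors. By annotation type 199 were antisense, 12 lincRNA, 10 processed transcript, 2 bidirectional promoter lncRNA, 1 TEC and 1 transcribed unitary pseudogene. The 10 protein-coding genes with a symbol and an annotated partner of this form include Brd3os, Ccpg1os, Cebpzos, Chd3os, Crxos, Fancd2os, Slc7a6os, Wdr83os and Zbtb8os. The 10 were in all 3 lists with the exception of Crxos, which was in E13.5 WT alone while Crx, a photoreceptor homeobox gene, was in none.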

How the data were processed

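The data are 4 gene lists, 1 per single-cell library, in which the authors deposited an Ensembl identifier and a symbol per line and no measured value. Per the submitters' processing notes, Seurat and the build mm10 were used. The sources used here do not give the aligner, the annotation release, the strand setting or how the lists were filtered. Depth is therefore unknown. Genes were matched between lists by identifier. Types, positions and strands came from GENCODE M21 on GRCm38, which held all 244 matching symbols (1 under another symbol). The partner is the symbol without os and number, looked up in the lists, the annotation and RefSeq synonyms on the same chromosome. Developmental regulators were partners whose symbols start with 1 of 83 transcription factor stems or 27 signal stems. Named were the transcripts in some lists only, those with an unlisted partner and those at developmental regulators, and other names were chosen after their values were seen. The members and lists were chosen with earlier results of these data known. Counting used Python 3.11.15 and pandas 2.3.3, and the position rules were checked on made-up genes. No test was run, since each group has 1 library. Promoter windows came from RefSeq, GRCm38.p6, matched by symbol, chromosome and strand. Results for some genes are not reported here.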

Additional observations from a re-analysis of the deposited data

How the results depend on the processing

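Of 59 alternative values for 14 results, 54 were within 1.5 times the main value. The 5 others came from keeping only transcripts that share no base with a coding exon, which leaves fewer genes. At E13.5 the number in WT only was then 5 and in both 59. In the KO the number in E13.5 only was 18, in E15.5 only 14 and in both 55. No other gene class was counted under this restriction. Matching by symbol changed no count. Adding the 19 protein-coding genes, adding 8 symbols ending in as or ot, or counting each partner as 1 (chosen after seeing the data) moved counts by less than 1.5 times. More transcripts were in E13.5 KO only than in E13.5 WT only, and more in E13.5 KO only than in E15.5 KO only, under each of these settings. The direction is not particular to the transcripts. Over all genes 9.72% were in E13.5 KO only and 6.61% in E13.5 WT only, and 10.4% and 7.37% between the KO ages. The E13.5 KO list was also the longest, with 26341 genes against 25463 (E13.5 WT) and 25474 (E15.5 KO). No paired analysis was possible because there is 1 library in each group. Depth is unknown, so no limit of detection can be given.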
